A study of Rattus norvegicus with 16 samples.

Results

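Protein-protected sites on RNA that joined peaks from a single-strand and a double-strand ribonuclease were examined in cultured rat cortical neurons, with and without NMDA. A both-RNase site was an entry of a deposited list of protein-protected sites (PPS) that had been joined from at least 1 peak of the ssRNase libraries and at least 1 peak of the dsRNase libraries. On the plus strands of chromosomes 11, 12, 16, 17, 18, 19 and 20, 4256 of 36392 sites met this rule over 4 lists. Another 11309 sites on these strands came from ssRNase alone and 20827 from dsRNase alone, and the lists held 329742 sites over all chromosomes and both strands. The members were thus selected on measured peaks, so the presence of both RNases in them is a description and not a finding.

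In protein interaction profile sequencing (PIP-seq), RNA crosslinked to its proteins is digested with a ribonuclease either while the proteins are still bound or after they have been removed. RNase ONE, here ssRNase, cuts unpaired RNA, and RNase V1, here dsRNase, cuts paired RNA. Stretches that survive digestion better with protein than without it are called protected. RNA-binding proteins include readers of single-stranded motifs and of double-stranded RNA, and in neurons they control splicing, transport along neurites and local translation at synapses. NMDA, an agonist of a class of glutamate receptors that pass calcium, causes excitotoxicity when these receptors are overstimulated.

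All cells were primary cortical neurons cultured from embryonic day 18 Sprague–Dawley CD rats, and the 2 groups were untreated control cultures and cultures given 10 µM NMDA. The labels name 15 or 21 days in vitro and 4 or 24 hours of treatment without saying which applies to these libraries. They also describe purified nuclei from tissue beside a molecule of total RNA, and so leave it unclear whether the RNA came from nuclei or from whole cells. Each group had replicates 2 and 3, and each replicate had 4 libraries (each RNase with and without protein), which gave 1 list, called control 2, control 3, NMDA 2 and NMDA 3 by group and replicate number. A list was therefore 1 sample, with n = 2 per group, and nothing in the labels says whether replicates were separate cultures. The files hold positions and scores but no genes or reads, so the labelled cell type could not be checked against markers and the sequencing depth is unknown.

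The lists held 8777 sites in control 2, 8903 in control 3, 9189 in NMDA 2 and 9523 in NMDA 3 on the 7 strands. NMDA 2 stood apart in its RNase make-up, with ssRNase peaks forming 19.2% of its peaks against 42.9% to 45.4% in the other lists. On the remaining plus strands, 0.00789% of the sites of control 3 joined both RNases, against 7.49% to 14.5% in the other lists. Values from those strands enter 1 alternative of the share by treatment and no other comparison here. Between 0 and 26 both-RNase sites had the same start and end in any pair of lists, and none of these also had the same scores.

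Both-RNase sites were a minority in every list, and on the 7 strands their share varied as much between replicates as between treatments. They numbered 1184 in control 2, 604 in control 3, 890 in NMDA 2 and 1578 in NMDA 3. As a share of all sites this was 13.5% (95% Wilson interval 12.8 to 14.2), 6.78% (6.28 to 7.33), 9.69% (9.10 to 10.3) and 16.6% (15.8 to 17.3), in the same order. The intervals cover counting error only. NMDA 3 and control 2 were high, NMDA 2 and control 3 were low, and the treatments overlapped on these strands. The order NMDA 3, control 2, NMDA 2, control 3 held on 7 of 7 chromosomes. The range over chromosomes was 14.5% to 19% in NMDA 3, 10.9% to 15.3% in control 2, 7.62% to 12.5% in NMDA 2 and 5.38% to 8.66% in control 3.

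The share averaged 10.1% ± 4.74 in control and 13.1% ± 4.87 in NMDA lists (SD, n = 2 each). The difference of 2.99 percentage points was smaller than the spread between replicates (exact two-sided permutation test, p = 0.667). With 2 lists against 2, the exact permutation test cannot go below p = 0.33. Of 8 such comparisons by treatment, 7 had a Benjamini-Hochberg adjusted permutation p of 0.762 and 1 of 1. Leaving out either control 3 or NMDA 3 turned the direction, to -0.362 and -0.452 percentage points, and leaving out NMDA 2 gave 6.43.

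The share of sites with both RNases depends on how many peaks each RNase contributed, and so it was also set against each RNase alone. Of the sites that held an ssRNase peak, 26.7% in control 2 and 14.8% in control 3 also held a dsRNase peak. In NMDA 2 this was 46.0%, and in NMDA 3 it was 30.9%. The NMDA values were both higher than either control value, with means of 38.4% ± 10.7 and 20.7% ± 8.44 (SD, n = 2 each). The difference of 17.7 percentage points reached the smallest p the design allows (exact permutation test, p = 0.33). The higher of the NMDA values came from the list with few ssRNase peaks, 1963 against 4095 to 5206 in the others.

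Of the sites that held a dsRNase peak, 21.4% in control 2, 11.1% in control 3, 10.9% in NMDA 2 and 26.4% in NMDA 3 also held an ssRNase peak. Here NMDA 2 was the lowest list and NMDA 3 the highest, so the treatments overlapped (exact permutation test, p = 1). When each list was reduced to its 1963 highest-scoring peaks per RNase, both-RNase sites formed 8.52% and 3.95% of the sites of controls 2 and 3, and 11.6% and 12.4% of those of NMDA 2 and 3. On these equal numbers the NMDA lists were above the controls by 5.73 percentage points (exact permutation test, p = 0.33, the smallest possible). The number 1963 was every ssRNase peak of NMDA 2, so only the other lists lost their lower-scoring ssRNase peaks. Peaks of equal score at the cut were kept by their order along the chromosomes. The part that this unequal filtering played in the difference was not tested.

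**Figure D1:**
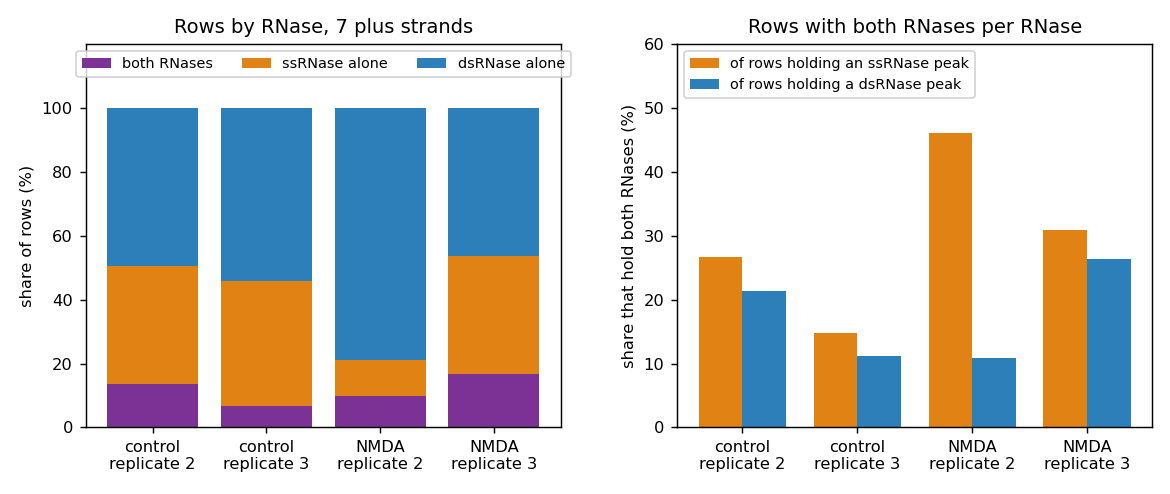
Share of sites (%) by RNase in each list on the 7 plus strands (left; stacked bars add to 100%), and share (%) of the sites holding an ssRNase peak or a dsRNase peak that hold both (right). Each bar is 1 list. Both-RNase sites form 13.5%, 6.78%, 9.69% and 16.6% of sites from left to right, and the ssRNase-based share is highest in NMDA 2 at 46.0%, where the dsRNase-based share is 10.9%.

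Most both-RNase sites had the simplest composition that the rule admits, 1 ssRNase peak joined to 1 dsRNase peak. This held for 86.9% of members in control 2, 95% in control 3, 88.2% in NMDA 2 and 84.1% in NMDA 3. Sites of 3 peaks numbered 128, 28, 92 and 194 in that order, and sites of at least 4 peaks numbered 27, 2, 13 and 57. Among sites of 3 peaks, 77, 20, 74 and 139 had 1 ssRNase and 2 dsRNase peaks, against 51, 8, 18 and 55 of the reverse. Over all sites, dsRNase peaks also outnumbered ssRNase peaks in each list. Their numbers were 5652 against 4513, 5444 against 4095, 8235 against 1963 and 6261 against 5206. Whether the extra peak was from dsRNase more often than these numbers give was not tested. Every site made of more than 1 peak was a both-RNase site, because no single-RNase site in any list held more than 1 peak.

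Just outside the rule lay single-RNase sites whose nearest site of the other RNase was 1 to 10 bp away. There were 76, 55, 33 and 50 such ssRNase sites in controls 2 and 3 and NMDA 2 and 3. Their median length was 55.5, 53.0, 49 and 70.0 bp and their median score 6.81, 6.57, 6.82 and 5.61. Just inside it, members of 1 peak from each RNase had a median length of 82.0, 75, 75 and 84.0 bp and a median ssRNase score of 6.82, 6.82, 6.82 and 9.39. The score is the one deposited by the authors for each peak, and its scale is not stated, so it served to rank sites within a list.

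Which RNase gave the stronger peak of a member differed between lists. This was read in members of 1 peak from each RNase only. Among these, the dsRNase score exceeded the ssRNase score in 67.3% in NMDA 2. It did so in 45.7% in control 2, 33.6% in control 3 and 33.5% in NMDA 3. The scores were equal in 10.2% and 12% of such members in controls 2 and 3, and in 1.66% and 0.829% in NMDA 2 and 3. The 2 NMDA lists thus stood at opposite ends of the balance between RNases.

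Both-RNase sites were longer than single-RNase sites in all 4 lists. The median length was 88.0 bp in control 2, 75.5 bp in control 3, 80.0 bp in NMDA 2 and 92.0 bp in NMDA 3. Single-RNase sites had medians of 51 to 63.0 bp for ssRNase and 40.0 to 50.0 bp for dsRNase. The ratio of medians, members over all single-RNase sites, was 1.69, 1.68, 1.60 and 1.92 in list order. Joining at least 2 peaks lengthens a site by construction, so the ratio is given with no test.

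Length rose with the number of peaks joined. In NMDA 3, members of 1 peak per RNase had a median of 84.0 bp, members of 3 peaks 146 bp and members of at least 4 peaks 302 bp. The share of members longer than 100 bp was 38.4%, 21.4%, 29% and 43.7% in controls 2 and 3 and NMDA 2 and 3. Among ssRNase-only sites it was at most 15.2% and among dsRNase-only sites at most 3.75%. The members covered 22.2%, 10.7%, 15.5% and 29.2% of the bases of all sites in the 4 lists, more than their share of sites in each. The lists give no start or end of the single peaks joined. How many bases of a member were protected from both RNases is therefore unknown. By treatment, the median length averaged 81.8 bp ± 8.84 in control and 86.0 bp ± 8.49 in NMDA lists (SD, n = 2 each). The difference of 4.25 bp was within the spread between replicates (exact permutation test, p = 0.667). Without control 3 or NMDA 3 it was -2.00 or -1.75 bp, and without control 2 or NMDA 2 it was 10.5 or 10.2 bp.

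**Figure D2:**
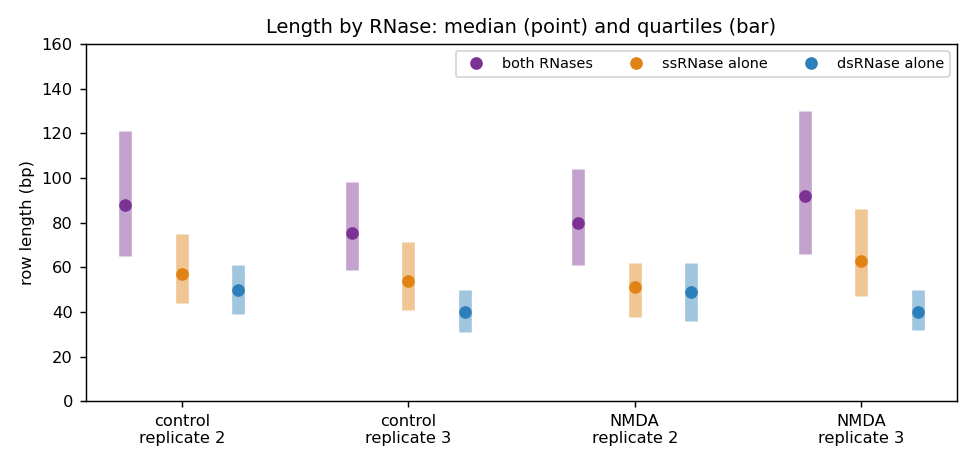
Length (bp) of both-RNase, ssRNase-only and dsRNase-only sites in each list, with the median as a point and the quartiles as a bar. The medians of both-RNase sites run from 75.5 to 92.0 bp and lie above those of both single-RNase kinds, at 40.0 to 63.0 bp, in every list.

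The highest score of a both-RNase site also ranked above that of single-RNase sites. Its median percentile among all sites of the list was 80.1 in control 2, 73.3 in control 3, 81.2 in NMDA 2 and 78.9 in NMDA 3. The gap to single-RNase sites was 32.2, 25.4, 22.7 and 29.8 percentiles. Between 23.2% and 31.6% of members were among the top 10% of sites of their list. The highest of several peaks tends to exceed a single one, so this gap too depends on the rule.

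Peak by peak, the gap was smaller and not present in every list. An ssRNase peak inside a member ranked 10.5, 0, 9.88 and 20.8 percentiles above an ssRNase peak on its own in controls 2 and 3 and NMDA 2 and 3. For dsRNase peaks the gaps were 10.2, 3.00, 0 and 11.1 percentiles. Control replicate 2 and NMDA 3, the lists with most members, had the larger gaps for both RNases. Strong peaks were joined more often than weak ones. Among the top 10% of ssRNase peaks, 56.7% lay in members in NMDA 3, against 22.9% of the lower 50% of peaks. In control 3 these shares were 17% and 13.0%. The score percentile of members averaged 76.7 ± 4.84 in control and 80.1 ± 1.64 in NMDA lists (SD, n = 2 each; exact permutation test, p = 0.667), and the difference of 3.39 fell to -0.0316 without control 3.

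Both-RNase sites were found again in other lists more often than single-RNase sites. A site recurred in another list when it shared at least 1 bp on the same strand with a site of any kind there. Averaged over the other 3 lists, 70.7% of members of control 2, 63.3% of control 3, 70.9% of NMDA 2 and 68.5% of NMDA 3 recurred. For single-RNase sites the values were 41.7%, 36.8%, 39.1% and 35.4%. The gap was 26.5 to 33.1 percentage points, with a mean of 30.1 ± 2.95 (SD over 4 lists). Overlaps are mutual between lists, so the 4 gaps are not independent and no p is given.

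Longer sites overlap more easily, and members are longer, so recurrence was also read within bands of length. Among sites of 50 to 99 bp, 65.0%, 61.3%, 66.9% and 59.7% of members recurred in list order, against 42.2%, 40.8%, 40.4% and 40.6% of single-RNase sites. The mean gap within this band was 22.2 percentage points. It was 19.1 when the midpoint of a site had to lie inside the site of the other list, and 23.3 among sites at or above the median score. Set against ssRNase-only sites the mean gap was 23.6 and against dsRNase-only sites 33.4. The direction was the same in each of these readings, and the size was smaller than over all lengths in 4 of the 5. Within every band holding at least 20 members, members were above each single-RNase kind of the same list that also held at least 20 sites. For instance, members of at least 150 bp recurred at 91.6% (150 sites) in control 2, 91.7% (60 sites) in NMDA 2 and 90.7% (286 sites) in NMDA 3.

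**Figure D3:**
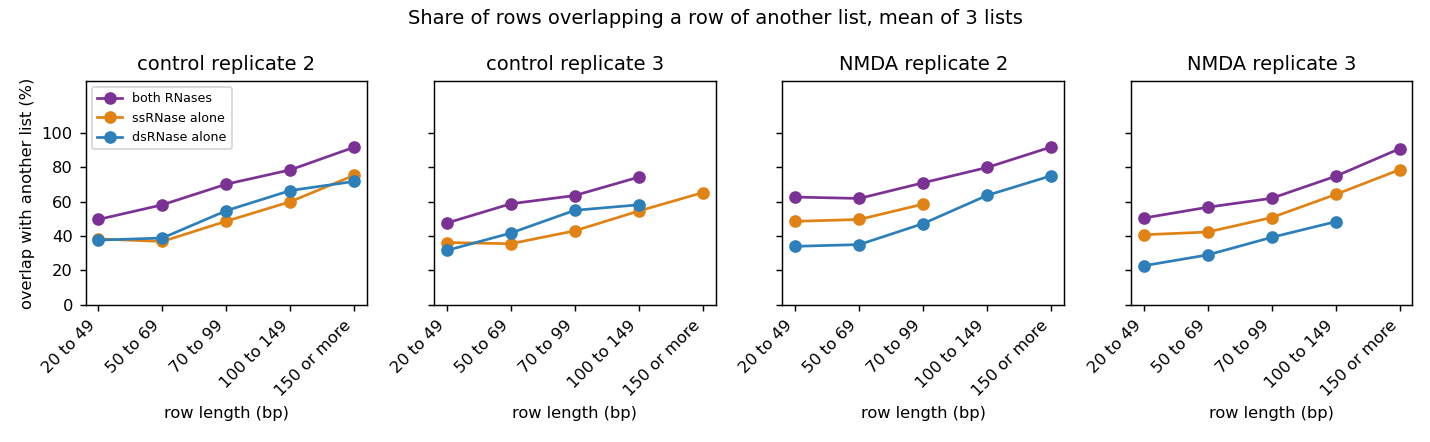
Share of sites (%) overlapping a site of another list, averaged over the other 3 lists, against site length (bp, 5 bands), for each list and kind of site; bands with fewer than 20 sites of a kind are not drawn. Both-RNase sites lie above both single-RNase kinds in each band where they are drawn, from 47.5% at 20 to 49 bp in control 3 to 91.7% at 150 bp or more in NMDA 2.

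Of the members, 41.5% in control 2 (491 sites), 35.4% in control 3 (214), 40.9% in NMDA 2 (364) and 39.7% in NMDA 3 (626) overlapped a site in all 3 other lists. Between 5.28% and 11.9% overlapped none. For ssRNase-only sites 19.5% to 36.3% overlapped none, and for dsRNase-only sites 28.9% to 51.3%. By treatment, the recurrence of members averaged 67.0% ± 5.25 in control and 69.7% ± 1.68 in NMDA lists (SD, n = 2 each; exact permutation test, p = 0.667, with values that are not independent). The difference of 2.70 percentage points became -2.60 without control 3 and 1.18 without NMDA 2.

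Recurrence of the position did not mean recurrence of both RNases. When a member overlapped a site of another list, that site was itself a both-RNase site in 31.8%, 30.3%, 32.4% and 26.7% of cases, averaged over the other lists, in list order. A recurring single-RNase site overlapped a both-RNase site in 18.8%, 24.1%, 23.7% and 15.7% of cases. The gap of 6.20 to 13.0 percentage points had the same direction in each list, with a mean of 9.71. It was 6.11 without control 2 and 14.3 without control 3.

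What a member overlapped depended on the list it was looked up in. Members of control 2 overlapped a both-RNase site for 39.6% of their number in NMDA 3, 21.8% in NMDA 2 and 9.21% in control 3. Members of NMDA 2 did so for 32.2% in NMDA 3, 28.9% in control 2 and 9.89% in control 3. Members of NMDA 3 did so for 29.3% in control 2, 17.6% in NMDA 2 and 9.70% in control 3. Members of control 3 did so for 25.2% in NMDA 3, 18.4% in control 2 and 14.4% in NMDA 2. A list of the other treatment thus gave the highest share for 3 of the 4 lists, and the lookup list with most members gave the highest share for each.

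Most other recurring members met sites of a single RNase, and 1.75% to 6.57% met separate sites of each RNase. In NMDA 2, where dsRNase peaks predominate, 61.4% to 64.0% of the recurring members of the other lists met dsRNase-only sites and 6.70% to 13.4% met ssRNase-only sites. In NMDA 3, 35.0% to 42.4% met ssRNase-only sites and 11.8% to 20% met dsRNase-only sites, although ssRNase peaks formed 45.4% of its peaks, close to 44.4% in control 2 and 42.9% in control 3. Looked up in the controls the order was the reverse, with 22.1% to 28.2% meeting ssRNase-only and 28.5% to 38.8% dsRNase-only sites in control 2. In control 3, 28.2% to 38.9% met ssRNase-only and 40.9% to 48.8% dsRNase-only sites. Some of these gaps were small, with 28.2% against 28.5% for NMDA 3 in control 2. For NMDA 2 in control 3 they were 38.9% against 40.9%. The part that the numbers of peaks per RNase played in these differences was not tested.

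**Figure D4:**
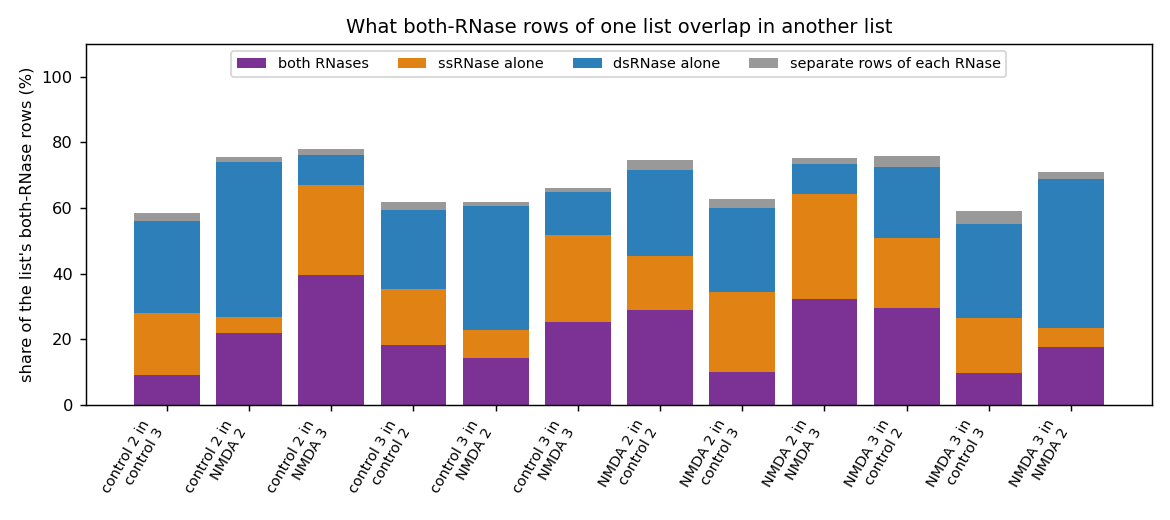
Share (%) of the both-RNase sites of one list that overlap, in another list, a both-RNase site, an ssRNase-only site, a dsRNase-only site or separate sites of each RNase, for the 12 ordered pairs of lists (control and NMDA with replicate number). The stacks reach 58.6% to 78.0%, the both-RNase segment is largest for control 2 looked up in NMDA 3 at 39.6%, and the dsRNase-only segment dominates in NMDA 2.

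Overlapping members of all lists on the same strand were joined into 3056 loci. Most loci, 2222 or 72.7%, were both-RNase sites in 1 list, 631 (20.6%) in 2 lists, 179 (5.86%) in 3 lists and 24 (0.785%) in all 4 lists. With sites of any kind counted, 1009 loci (33.0%) were occupied in all 4 lists and 303 (9.91%) in 1 list. Among the 2222 loci with both RNases in 1 list, 303 (13.6%) had no site in any other list and 481 (21.6%) had a site in all 4. Protection was thus found again at most of these places, as single-RNase sites, which could be of either kind or both.

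Members at loci that recurred were longer and held more peaks. In NMDA 3 the median length was 80.0 bp for loci of 1 list, 105 bp for 2, 146 bp for 3 and 243 bp for 4 lists, and the median score was 9.39, 11.5, 13.7 and 18.4. The share with more than 2 peaks was 7.20% for 1 list and 61.8% for 4 lists. In control 3 the length rose from 72.0 to 90.5 bp while the share with more than 2 peaks was 4.58% for 1 list and 3.85% for 4 lists. Longer members also chain together more readily into 1 locus, so these values are descriptions.

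The 24 loci with both RNases in all 4 lists lay on all 7 chromosomes, with 2 on chromosome 18, 3 each on 11, 16 and 17, 4 each on 19 and 20 and 5 on 12. They fell in 23 different windows of 100 kb, so they were spread out rather than gathered in 1 region. In 9 of the 24, some bases lay inside a member of every list, with 6 to 93 such bases and a median of 56.0. In the other 15, members of different lists were linked through each other without a base common to all.

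Locus chr20:40769621-40769777 (rn6, plus strand, as all positions here) had the longest common stretch, 93 bp at 40769685 to 40769777. Each list had a member there that ended at 40769777, and these members differed in where they began. Control replicate 3 had a member of 93 bp with an ssRNase score of 5.44 and a dsRNase score of 9.58, and NMDA 2 one of 102 bp with 6.71 and 21.4. Control replicate 2 had members of 37 and 112 bp, the longer with scores of 9.48 and 9.98. NMDA 3 had a single member of 157 bp with an ssRNase score of 23.6 and a dsRNase score of 10.0. The stronger RNase was dsRNase in the first 3 lists and ssRNase in NMDA 3.

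At chr17:10385371-10385500 each list had 1 member and no other site. It was 130 bp in control 2, 104 bp in control 3, 120 bp in NMDA 2 and 72 bp in NMDA 3, and 56 bp were common to all. The dsRNase score was the higher one in every list, at 9.48, 9.58, 23.6 and 12.2, against ssRNase scores of 8.35, 6.21, 8.35 and 11.5. Another compact locus, chr16:81126032-81126147, had members of 116, 88, 74 and 86 bp with 63 bp in common. There too dsRNase scored higher in every list, at 16.1, 8.35, 13.5 and 11 against 5.40, 6.02, 8.14 and 7.43 for ssRNase.

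The locus with the highest score floor was much larger. At chr19:56228377-56229561, 1185 bp long, the top member score was at least 16.3 in every list. Control replicate 2 had 4 members there, of 101, 352, 165 and 335 bp, and NMDA 3 had 3, of 83, 357 and 557 bp. Control replicate 3 had 2 members, of 111 and 144 bp, among 7 single-RNase sites of 24 to 58 bp. NMDA 2 had 2 members, of 200 and 151 bp, and its strongest site there was a dsRNase-only one of 186 bp with a score of 55.7. Each list thus had sites along this stretch, with gaps between them, divided differently between joined and single sites. No base lay inside a member of every list, and the top scores of the lists came from members at different positions.

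The second in this order, chr12:36641994-36642729 (736 bp), had 2 members in control 2, of 380 bp with 4 ssRNase and 2 dsRNase peaks and of 146 bp. It had 1 member in control 3, of 77 bp. NMDA 2 had 2 members there, of 144 and 112 bp, and NMDA 3 had 3, of 408, 51 and 237 bp. The others among the first 10 were chr20:37886151-37886626, chr16:56396039-56396470, chr17:31495768-31496825, chr12:39595814-39596149 and chr19:26374826-26375126, with a top member score of at least 8.14 to 9.48 in each list. Neither these loci nor chr12:36641994-36642729 had a base inside a member of every list. At chr17:31495768-31496825 (1058 bp), NMDA 2 had 4 members, control 2 and NMDA 3 had 3 each, and control 3 had 1 of 64 bp beside 7 single-RNase sites. At chr12:39595814-39596149 a single member of NMDA 3 spanned all 336 bp, where the other lists had members of 58 to 93 bp.

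By treatment, 113 of the 3056 loci (3.70%) had both RNases in both NMDA lists and in no control list. Another 45 (1.47%) had both RNases in both control lists and in no NMDA list. These counts move with the number of members, which was lowest in control 3. Of the 113 loci, 54 held a single-RNase site in both control lists and 12 held no control site of any kind. Of the 45 loci, 23 held a single-RNase site in both NMDA lists and 5 held no NMDA site. Most treatment-patterned loci thus differed in RNase state or in 1 list rather than by presence against absence. Counted whatever the remaining lists held, control 2 and NMDA 3 shared 424 member loci, against 266 for the NMDA pair and 119 for the control pair. These shared counts do not exclude the other treatment, unlike the 113 and 45.

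The first of the 12 NMDA-only loci, by the lower of the top scores of both lists, was chr18:73236037-73236169. NMDA 2 had a member of 119 bp with an ssRNase score of 15.4 and a dsRNase score of 13.7, and NMDA 3 one of 133 bp with 13.7 and 9.98. The next were chr16:1953931-1954026, with members of 67 and 96 bp and ssRNase scores of 19.4 and 11.5, and chr16:83827090-83827185, with members of 91 and 80 bp and dsRNase scores of 18.4 and 8.35. The first 3 of the 5 control-only loci, by the lower of the top scores of both lists, were chr19:57113089-57113178, with members of 66 and 87 bp and ssRNase scores of 7.58 and 7.27, chr12:50273550-50273661, with members of 86 and 94 bp and top scores of 6.82 and 17.4, and chr18:62906546-62906610, with members of 52 and 55 bp and ssRNase scores of 6.82 and 7.0. Selected for presence in one treatment, these loci are descriptions with no test.

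The longest member of all was at chr17:31443378-31444685 in NMDA 3. It was 1308 bp long and joined 3 ssRNase peaks, with a top score of 86.0, and 12 dsRNase peaks, with a top score of 13.7. Over the same bases control 2 had 4 members of 246, 201, 193 and 254 bp and 3 single-RNase sites. NMDA 2 had 1 member of 354 bp, the longest of that list, and 6 dsRNase-only sites. Control replicate 3 had no member and 6 single-RNase sites. A site counted once in one list was therefore counted as several in another. The effect of this on the number of members per list was not tested.

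**Figure D5:**
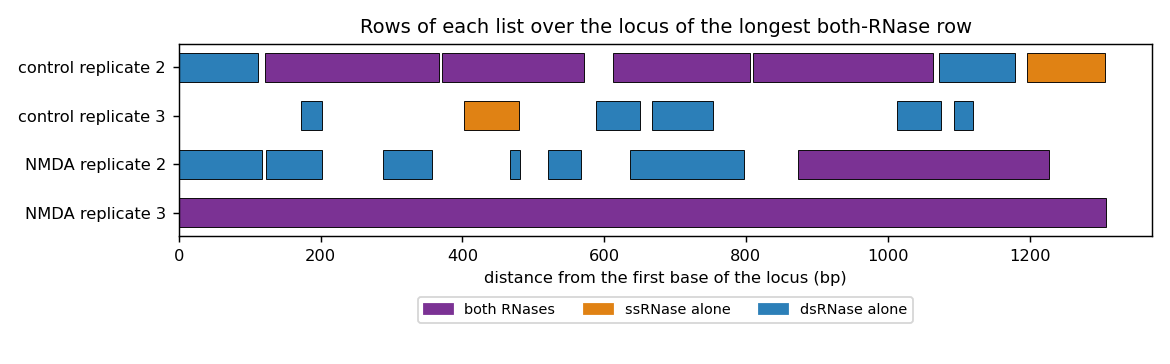
Sites of each list over the locus of the longest both-RNase site, drawn to scale as distance (bp) from its first base, coloured by RNase. NMDA 3 has 1 both-RNase site of 1308 bp, control 2 has 4, NMDA 2 has 1 of 354 bp and control 3 has none.

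The longest member of control 2 was similar in shape, 624 bp with 2 ssRNase and 5 dsRNase peaks at chr16:27014164-27014819. NMDA 3 had a member of 608 bp there, with 1 ssRNase peak scoring 62.2 and 6 dsRNase peaks. NMDA 2 had 3 members of 70 to 100 bp there and control 3 had 2 dsRNase-only sites. The most peaks in a member of control 2 were 9, at chr11:58672358-58672922 (565 bp), where NMDA 2 and 3 had 2 members each and control 3 had none. In control 3 the longest member, 210 bp at chr18:27104416-27104647, joined 1 ssRNase and 3 dsRNase peaks. The most peaks in a member of NMDA 2 were 5, in 254 bp at chr11:58717373-58717767.

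Both-RNase sites were present in fewer windows of 100 kb than single-RNase sites. A member was present in 39.1% of the occupied windows in control 2 (491 windows), 26.6% in control 3 (378), 32.3% in NMDA 2 (430) and 39.3% in NMDA 3 (542). A count of 97, 104, 98 and 89 windows held 50% of the members, against 126 to 186 for ssRNase-only and 139 to 198 for dsRNase-only sites. Fewer members than single sites fill fewer windows by number alone. In NMDA 2, where 890 members and 1043 ssRNase-only sites are close in number, 50% of them lay in 98 and 126 windows. There the median distance to the nearest site of the same kind was 3430 bp for members, 5321 bp for ssRNase-only and 526 bp for dsRNase-only sites. In the other 3 lists members lay farther apart than ssRNase-only sites, at 1914 against 660 bp in control 2, 18112 against 1351 bp in control 3 and 1162 against 930 bp in NMDA 3.

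The share of members in windows of at least 5 members was 38.3% in control 2, 11.3% in control 3, 26.7% in NMDA 2 and 50.9% in NMDA 3. It followed the order of the number of members per list. The more numerous single-RNase sites had 57.8% to 78.8% in windows of at least 5 of their kind, apart from 21.8% for ssRNase-only sites in NMDA 2. It averaged 24.8% ± 19.2 in control and 38.8% ± 17.1 in NMDA lists (SD, n = 2 each; exact permutation test, p = 0.667). Members also formed a larger share of sites in windows that were rich in sites in the other 3 lists. In NMDA 3 the share rose from 10.7% where the other lists had 0 to 4 sites to 20.1% where they had at least 60. The same ends were 6.20% and 15.2% in control 2, 2.86% and 7.99% in control 3, and 4.27% and 9.73% in NMDA 2, which peaked at 12.1% in windows of 30 to 59 sites.

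The window with most members was chr16:21000001-21100000, with 62 over the 4 lists. It held 18 in control 2, 7 in control 3, 15 in NMDA 2 and 22 in NMDA 3, which was 32.1%, 17.9%, 25.0% and 56.4% of the sites there. Each of these shares was above that of the list as a whole, in a window chosen for its number of members. The members fell into 31 loci, 19 of them present in at least 2 lists. The next was chr18:27100001-27200000, with 13, 4, 8 and 23 members in list order, in 26 loci of which 12 were in at least 2 lists. In chr11:16800001-16900000 the numbers were 16, 0, 5 and 20, so control 3 had no member among its 24 sites where control 2 had 16 among 40.

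No window differed by treatment in a fit over all windows. Members were counted in stranded 100 kb windows, scaled per 1000 members of the list, and log2(scaled count + 0.5) was fitted with limma. Of 854 windows with a member, 341 had at least 4 over the 4 lists and were tested. None of the 341 (0%) had an adjusted p under 0.05, the smallest limma adjusted p being 0.972, and 9 (2.64%) had an unadjusted p under 0.05, 7 higher and 2 lower with NMDA. The median log2 difference was 0.135 and its median standard error 1.15, so changes of that size could not be resolved with 2 lists per group. A log2 difference on this scale is too small for windows with few members.

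Without control 2, 6 of the 262 windows tested passed the same limma threshold, all higher with NMDA against a single control list. The spread then came from the 2 NMDA lists, pooled over windows, and the lone control list was assumed to vary like them. They were chosen after their values were seen. The smallest limma adjusted p, 0.00586, belonged to chr11:16800001-16900000 and to chr20:29800001-29900000, which held 9, 0, 7 and 13 members in list order. At chr18:27000001-27100000 the members numbered 10, 1, 11 and 17. In these 3 windows control 2 held at least 9 members. At chr17:80800001-80900000 the members numbered 6, 0, 6 and 10, and at chr11:47000001-47100000 they numbered 2, 0, 5 and 6. Control 3 held 0 or 1 member in all 6 windows. At chr20:27400001-27500000 both control lists had 0, NMDA 2 had 2 and NMDA 3 had 15.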

How the data were processed

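The authors deposited lists of PPS with position, peak names and peak scores, which are numbers of unstated scale. Per the labels, list names hold the terms CSAR and FDR05; per the submitters' processing notes, cutadapt 1.2.1, TopHat2 2.0.10 and the rn6 build were used. Reads of 50 bases came from a HiSeq2000, per the labels' protocols. Groups and replicate numbers came from sample titles.

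Members, strands and lists of sites were chosen with earlier results of these data known. A site's score was its highest peak score. Overlap meant at least 1 bp on the same strand, and overlapping members were joined into loci. Named positions were, by rule, the 10 loci in all 4 lists with the highest lowest score, the 3 strongest loci of each treatment alone, the longest and most-peaked member of each list, and the 3 windows with most members. The per-list means were compared by exact permutation tests over lists, and log2(scaled members + 0.5) per window with limma 3.58.1 in R 4.3.3. Other steps used Python 3.11.15, scipy 1.17.1, pandas 2.3.3 and numpy 2.4.6. The code was tested on simulated data. Over windows, the deviation of replicate 2 from its group mean correlated at -0.0314 between control and NMDA. With few members per window, this value could not settle whether lists of the same number were pairs. The main tests did not take the replicate numbers as pairs. The reference tables at hand were of another assembly, so no gene or sequence is given. Alternatives covered score, length, overlap rule, midpoint, window size, filter, scaling, the replicate block and leaving out each list. Comparisons with one RNase alone, peak-level ranks and a length band for the RNase state were added after seeing the data.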

Additional observations from a re-analysis of the deposited data

How the results depend on the processing

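The exact tests over lists could not reach p under 0.05 under any alternative, so their p-values say nothing about stability. Over all chromosomes and strands the share was 8.35% and 7.81% in controls 2 and 3, and 12.8% and 10.5% in NMDA 2 and 3. There the treatments did not overlap, unlike on the 7 strands. The difference was 3.6 percentage points (exact permutation test, p = 0.33, the smallest possible). These values include the remaining plus strands of control 3, where 0.00789% of sites joined both RNases. With 1 list left out at a time, the NMDA minus control difference ranged from -0.452 to 6.43 percentage points for the share, with -0.362 without control replicate 3. It ranged from -2.00 to 10.5 bp for length, with -1.75 without NMDA replicate 3, from -0.0316 to 6.81 for the score percentile and from -2.60 to 4.24 for recurrence. With lists of the same number as a replicate block, the differences stayed at 2.99, 4.25, 3.39 and 2.70, with exact sign-flip permutation p of 1, 1, 0.5 and 0.5, and 0 windows passed in limma.

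Against single-RNase sites the mean over lists kept its direction in all alternatives. List by list this did not always hold, as the peak-level score gap was 0 for ssRNase in control 3 and for dsRNase in NMDA 2. The length ratio, 1.72 on average, was 1.49 against ssRNase-only and 1.90 against dsRNase-only sites (1.66 to 1.76 leaving out lists). The score gap of 27.5 percentiles was 10.3 for ssRNase peaks and 6.07 for dsRNase peaks (26.0 to 29.2). The recurrence gap of 30.1 points was 23.3 in the upper scores, 19.1 by midpoint, 22.2 at 50 to 99 bp, 23.6 and 33.4 against ssRNase-only and dsRNase-only sites (28.2 to 33.5). The gap in RNase state, 9.71, ranged from 6.11 to 14.3. The share of members in dense windows is no contrast with single-RNase sites. It was 31.8% on average and 50.8% with 500 kb windows (25.4 to 38.7). The number of windows passing ranged from 0 to 6. The causes of these shifts were not tested. Read depth is unknown, and 2 lists per group limit every comparison by treatment.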
